A study of Mus musculus with 6 samples.

Results

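The 10 genes described here mark and hold together epithelium in the mammary gland. They are Cdh1, Cdh3 and Epcam, which encode adhesion proteins of the cell surface, Tjp3 and Lad1, which encode a junction scaffold and a basement membrane protein, Prom2 and Rab25, which act in membrane organisation and traffic, and the regulators Esrp1, Elf3 and Ehf. Members were taken as all probe sets whose single gene symbol in the platform annotation was 1 of these names. This gave 16 probe sets for 10 genes, of 45037 probe sets and 18193 genes with a single symbol on the array. RNA came from mammary glands of female bitransgenic mice at 10 weeks and at 5 weeks of age. The mice carried the transgene of a line that the labels call LH and do not explain, together with MMTV-neu, a transgene whose viral promoter, active in mammary epithelium, drives the neu (Erbb2) oncogene. Mice of both ages carried both transgenes, and no gland without them was among the 6 arrays. There were 3 arrays for each age, each with the pooled RNA of 3 animals, so single animals cannot be seen.

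Epithelial cells are joined by adherens junctions, in which cadherins bind their like on the next cell and hold catenins inside, and by tight junctions, which seal the space between cells and are held by scaffold proteins such as the zonula occludens family. The mammary epithelium has an inner luminal layer, which is rich in E-cadherin and EpCAM, and an outer myoepithelial layer, in which P-cadherin is typical. Splicing factors of the ESRP family and ETS transcription factors such as ELF3 and EHF help keep the epithelial state, while transcription factors of the Snail, Zeb and Twist families repress E-cadherin. The glands contained epithelium by the markers used to check the name of the gene group: Krt8 and Krt18, the keratins of luminal cells, had mean signals of 8906 and 7816 at 10 weeks and 6881 and 6246 at 5 weeks, in the top 2% of probe sets. Of the 5 skin keratinocyte markers on the array, Krt1, Ivl, Flg and Krtdap lay between 8.4 and 97.8 in every pool, under the lowest mean signal of 107 that was kept for testing. The fifth, Krt10, was above it, with 286.6 to 308.4 at 10 weeks and 349.2 to 379.8 at 5 weeks (log2 difference -0.27, limma adjusted p = 0.146).

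Of the 10 genes, 6 rose at 10 weeks and none fell. The 6 were Epcam, Tjp3, Rab25, Esrp1, Elf3 and Ehf. At an unadjusted p of 0.05 in limma, Cdh1 was higher as well, which made 7 of the 10, and 1, Lad1, was lower, beside 21.1% of all genes higher and 25.0% lower at that level. Of all 13034 genes tested, 15.5% rose and 19.0% fell. Each gene stands here by its brightest probe set, and a gene rose or fell where limma's moderated test gave a Benjamini-Hochberg adjusted p under 0.05 over all 27021 probe sets tested. The median difference of the 10 genes was 0.68 on the scale of log2(signal + 32), beside -0.006 over all genes tested. The 3 pools at 10 weeks all lay above the 3 at 5 weeks for 7 of the 10, as they did for 24.1% of all genes. They all lay below for Lad1, as they did for 26.5% of all genes. The 10 genes were chosen with earlier results of these data known, so these counts and shares are a description and no test. In whole-gland RNA, more cells of a type and more RNA per cell cannot be told apart.

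**Figure D1:**
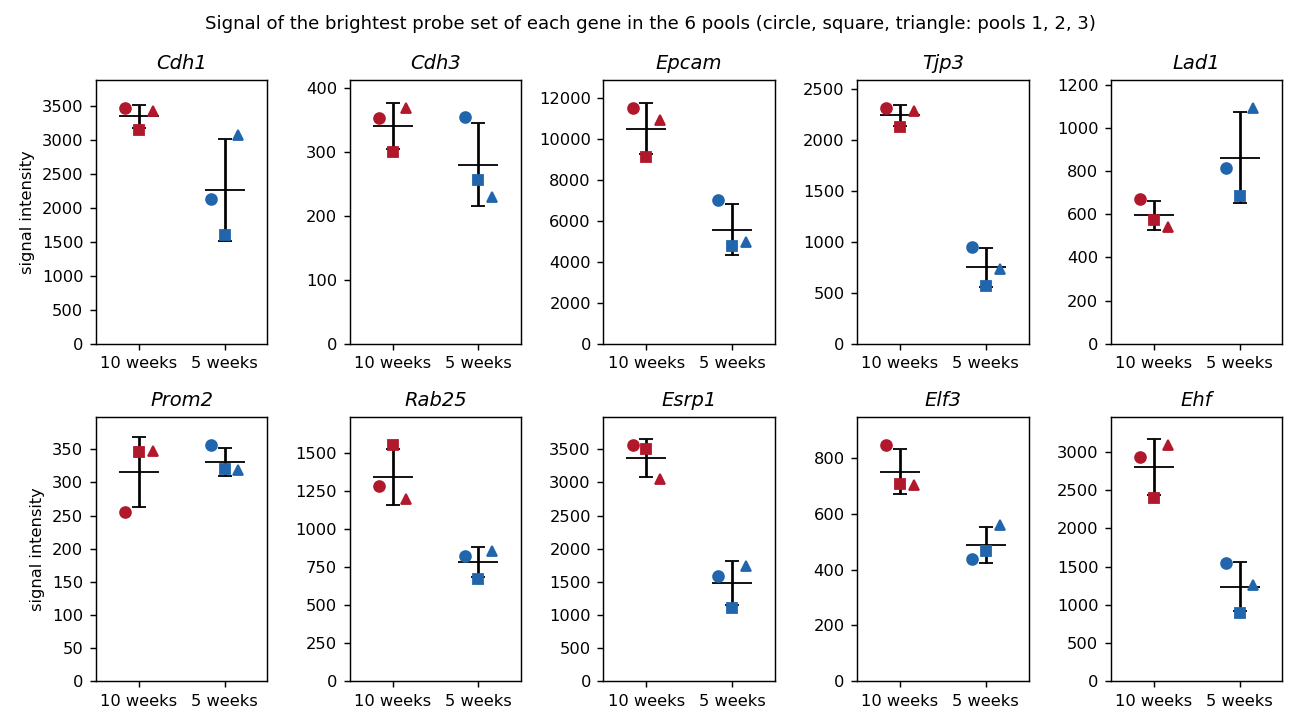
Signal intensity (linear, from 0) of the brightest probe set of each gene in the 3 pools at 10 weeks (red) and the 3 at 5 weeks (blue); bars are the mean ± SD over 3 pools. As a ratio of means the ages differ most for Tjp3 (2.99), Esrp1 (2.28) and Ehf (2.27), Lad1 runs the other way, and the ages overlap for Cdh3 and Prom2.

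Among the adhesion genes, Epcam rose. EpCAM is a surface glycoprotein of simple epithelia that also partners claudins. Its brightest probe set read 11521.5, 9112.8 and 10914.8 in the pools at 10 weeks, against 7006.3, 4752.2 and 4967.2 at 5 weeks. The ages did not overlap, and the lowest pool at 10 weeks was above the highest at 5 weeks. The means were 10516 ± 1253 at 10 weeks and 5575 ± 1244 at 5 weeks (SD, n = 3 each), a log2 difference of 0.93 ± 0.16 (SE; limma adjusted p = 0.00269). The second probe set of Epcam read 2479.7, 4458.8 and 5075.0 at 10 weeks, against 1058.3, 1482.9 and 1561.5 at 5 weeks. It rose by 1.48 ± 0.26 (SE; limma adjusted p = 0.00309), again without overlap. The probe sets differed in which pool at 10 weeks was highest: pool 1 was the highest on the brightest probe set and the lowest on the second.

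Cdh1, which encodes E-cadherin, the classical cadherin of luminal cells, did not pass the test although the ages did not overlap. Its signal was 3476.9, 3157.3 and 3427.2 at 10 weeks, against 2126.9, 1599.7 and 3074.1 at 5 weeks. The pools at 10 weeks lay close together, while pool 3 at 5 weeks came near them. The means were 3354 ± 172 at 10 weeks and 2267 ± 747 at 5 weeks (SD, n = 3 each), and the log2 difference was 0.61 with a 95% interval of 0.15 to 1.07 (limma adjusted p = 0.0510). Without 5-week pool 3 the difference was 0.85 and passed (limma adjusted p = 0.00470), and without 5-week pool 2 it was 0.39 (limma adjusted p = 0.116).

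Cdh3, which encodes P-cadherin of the myoepithelial layer, did not pass the test. Its brighter probe set read 353.0, 298.9 and 368.3 at 10 weeks, against 353.9, 256.1 and 229.7 at 5 weeks. The ages overlapped through 5-week pool 1, and the log2 difference of 0.27 had a 95% interval of -0.14 to 0.68 (limma adjusted p = 0.295). The second Cdh3 probe set lay between 18.1 and 134.9 in all pools and was too dim for the main test. The change of Cdh3 was set against that of Cdh1 within each pool. The difference log2 Cdh3 minus log2 Cdh1 was -3.19, -3.27 and -3.11 in the pools at 10 weeks, against -2.48, -2.50 and -3.57 at 5 weeks. The shift of -0.34 did not separate the ages (two-sided exact permutation p = 0.4, where 0.1 is the smallest that 3 pools against 3 allow).

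Tjp3 rose most among the 10 genes by their brightest probe sets, with the second Epcam probe set close to it at 1.48. It encodes ZO-3, a scaffold of tight junctions found in epithelia that binds claudins and occludin from the inside of the cell. Its signal was 2311.7, 2120.8 and 2283.9 at 10 weeks, against 949.0, 567.8 and 731.2 at 5 weeks. All pools at 10 weeks lay above all pools at 5 weeks, with a gap wider than the spread within either age. The means were 2239 ± 103 at 10 weeks and 749 ± 191 at 5 weeks (SD, n = 3 each), a ratio of 2.99 and a log2 difference of 1.57 ± 0.17 (SE; limma adjusted p = 0.000321).

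Lad1 ran the other way and did not pass the test. It encodes ladinin, a protein of the anchoring filaments that tie basal cells to the basement membrane. Its signal was 671.5, 575.1 and 541.1 at 10 weeks, against 813.9, 684.2 and 1094.3 at 5 weeks. The ages did not overlap, but 10-week pool 1 and 5-week pool 2 were nearly level. The log2 difference was -0.49 with a 95% interval of -0.89 to -0.09 (limma adjusted p = 0.0656). Without 5-week pool 2 it was -0.64 and passed (limma adjusted p = 0.0284), and without 5-week pool 3 it was -0.32 (limma adjusted p = 0.167).

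Rab25, an epithelial small GTPase of the Rab11 family that steers recycling endosomes to the apical side, rose. Its signal was 1280.8, 1550.7 and 1195.5 at 10 weeks, against 820.9, 670.7 and 854.2 at 5 weeks. The ages did not overlap. The means were 1342 ± 185 at 10 weeks and 782 ± 97.8 at 5 weeks (SD, n = 3 each), a log2 difference of 0.75 ± 0.14 (SE; limma adjusted p = 0.00455).

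Prom2, which encodes prominin-2, a cholesterol-binding protein of membrane protrusions, gave no call on either of its probe sets. The brighter read 255.3, 345.4 and 347.1 at 10 weeks, against 356.1, 319.9 and 318.8 at 5 weeks, and the ages overlapped. Its log2 difference was -0.07 with a 95% interval of -0.43 to 0.28 (limma adjusted p = 0.762). The dimmer read 208.7, 341.7 and 391.7 at 10 weeks, against 211.5, 203.4 and 234.2 at 5 weeks. Pools 2 and 3 at 10 weeks were above every pool at 5 weeks and pool 1 was not, which left a difference of 0.44 with an interval of -0.05 to 0.93 (limma adjusted p = 0.161). Without 10-week pool 1 the dimmer probe set gave 0.68 and passed (limma adjusted p = 0.0261), while the brighter gave 0.059 (limma adjusted p = 0.824). The probe sets of Prom2 therefore differed in sign over all pools.

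All 3 regulators rose. Esrp1 encodes an RNA-binding protein that directs epithelial splicing of transcripts such as those of Fgfr2 and Cd44. Its signal was 3561.0, 3508.6 and 3047.0 at 10 weeks, against 1592.9, 1105.8 and 1742.1 at 5 weeks. The lowest pool at 10 weeks was far above the highest at 5 weeks. The means were 3372 ± 283 at 10 weeks and 1480 ± 333 at 5 weeks (SD, n = 3 each), a log2 difference of 1.19 ± 0.16 (SE; limma adjusted p = 0.00103). The arrays give its level and not the splicing of its targets.

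Ehf, an ETS transcription factor of glandular and surface epithelia, rose on all 3 of its tested probe sets. The brightest read 2934.5, 2397.8 and 3091.1 at 10 weeks, against 1544.3, 897.7 and 1264.5 at 5 weeks. The means were 2808 ± 364 at 10 weeks and 1236 ± 324 at 5 weeks (SD, n = 3 each), a log2 difference of 1.19 ± 0.19 (SE; limma adjusted p = 0.00206). The next probe sets rose by 1.34 ± 0.16 and 1.19 ± 0.20 (SE; limma adjusted p = 0.000554 and 0.00265), and the ages did not overlap on any of the 3. A further Ehf probe set lay between 31.8 and 97.3 in all pools and was too dim for the main test.

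Elf3, another ETS transcription factor of epithelia, rose too. Its signal was 845.9, 707.0 and 702.4 at 10 weeks, against 437.8, 465.6 and 560.2 at 5 weeks, with no overlap. The means were 752 ± 81.6 at 10 weeks and 488 ± 64.2 at 5 weeks (SD, n = 3 each), a log2 difference of 0.59 ± 0.14 (SE; limma adjusted p = 0.0131). The call was lost without 10-week pool 1, the highest of the pools, where the difference was 0.51 (limma adjusted p = 0.0509).

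**Figure D2:**
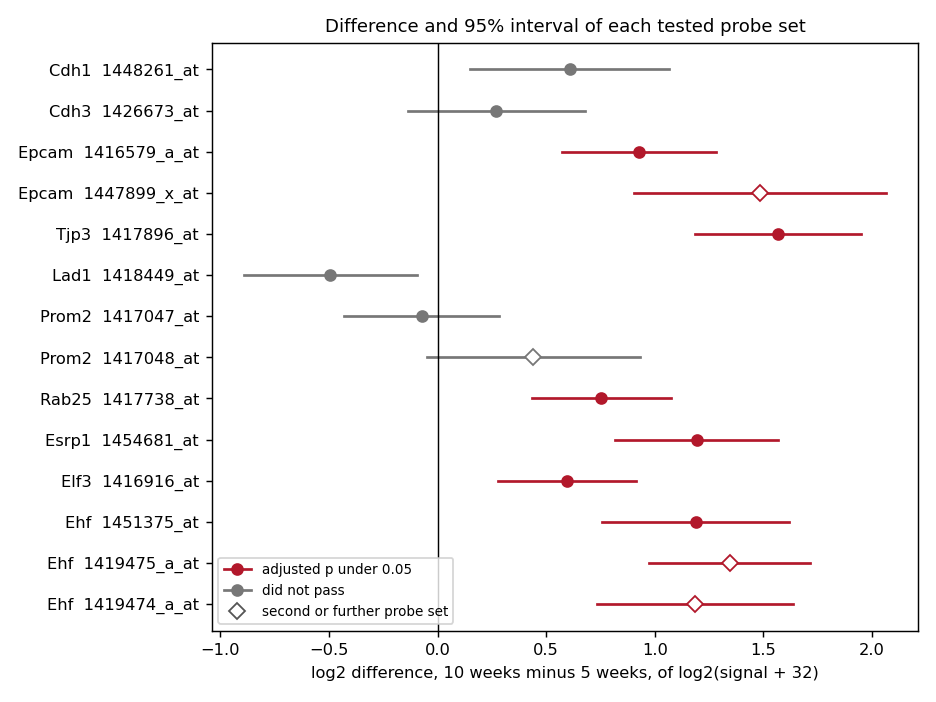
Log2 difference (10 weeks minus 5 weeks, on log2(signal + 32)) with its 95% interval for the 14 tested probe sets; red marks adjusted p under 0.05, open diamonds further probe sets of a gene. The tested probe sets of Epcam and of Ehf all rose, those of Prom2 lie on either side of 0, and the interval of Lad1 lies below 0 without passing the adjusted test.

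Over probe sets, 9 of the 14 tested rose, where 13.5% of all tested probe sets rose. None of the 14 fell. The share of all tested probe sets that fell is not given, and over genes it was 19.0%. Within an age the pools were ranked on the brightest probe set of each gene. Among the pools at 5 weeks, pool 2 was the lowest for 7 of the 10 genes and the highest for none. Among the pools at 10 weeks, pool 1 was the highest for 6. The shares of all genes with these ranks are not given, so joint movement of the members was not tested. The ranks also depend on the probe set, as the second one of Epcam was lowest in pool 1 at both ages. In markers of other tissues, 5-week pool 2 and 10-week pool 1 stood apart. The summed signal of the B cell markers Cd79a, Ms4a1 and Cr2 was 233.4 to 634.5 at 10 weeks, while at 5 weeks it was 1937.6 in pool 2 and 173.7 and 233.7 in the other pools. In 10-week pool 1 the summed signal of 5 skeletal muscle markers was 4268.3, against 32803.2 and 30202.2 in the other pools of that age and 39976.9 to 67586.1 at 5 weeks, and 1 of the 5, Mylpf, fell by 2.43 (limma adjusted p = 0.0384). Without 5-week pool 2, 6 of the 10 genes rose and 1 fell, where 1680 of all 13034 genes tested rose and 2094 fell. Without 10-week pool 1, 5 of the 10 rose and none fell, where 1427 of all genes rose and 1892 fell. With the mean of the muscle markers as a covariate 5 of the 10 rose, where 6.54% of all genes did. Each of the 5 markers was lower at 10 weeks without overlap. The covariate thus moved with age, and the fit cannot fully separate muscle from age. None of the 10 fell in that fit, where 1097 of all genes did. Elf3 lost its call at 0.46 (limma adjusted p = 0.164), and the dimmer Prom2 probe set gained one at 0.88 (limma adjusted p = 0.0315).

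Promoter windows were read from a RefSeq table (GRCm38.p6), which held none for Cdh1, Cdh3, Esrp1 and Ehf. Of these, Esrp1 and Ehf rose. The other 6 of the 10 genes had windows, among them 4 that rose. The windows of these 4 are shown because they belong to genes that rose together and because all of them hold the E-box CACCTG or its reverse complement CAGGTG, the letters that Snail and Zeb factors are known to bind. Each line gives the 250 bases before the annotated start, 5′ to 3′ on the strand of the gene, with these letters in capitals. The Epcam window is chr17:87635729-87635978 on the plus strand, and on the minus strand lie those of Rab25 (chr3:88548280-88548529), Elf3 (chr1:135258473-135258722) and Tjp3 (chr10:81291582-81291831).
Epcam: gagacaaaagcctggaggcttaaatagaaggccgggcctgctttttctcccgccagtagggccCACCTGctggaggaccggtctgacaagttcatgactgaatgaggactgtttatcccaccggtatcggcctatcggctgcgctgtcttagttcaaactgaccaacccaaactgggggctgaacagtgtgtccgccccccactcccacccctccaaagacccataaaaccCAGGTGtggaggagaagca
Rab25: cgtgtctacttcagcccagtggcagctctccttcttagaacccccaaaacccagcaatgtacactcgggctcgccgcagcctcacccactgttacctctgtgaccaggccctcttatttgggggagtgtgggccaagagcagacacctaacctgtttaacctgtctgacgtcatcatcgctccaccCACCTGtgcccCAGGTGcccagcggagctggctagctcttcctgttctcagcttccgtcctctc
Elf3: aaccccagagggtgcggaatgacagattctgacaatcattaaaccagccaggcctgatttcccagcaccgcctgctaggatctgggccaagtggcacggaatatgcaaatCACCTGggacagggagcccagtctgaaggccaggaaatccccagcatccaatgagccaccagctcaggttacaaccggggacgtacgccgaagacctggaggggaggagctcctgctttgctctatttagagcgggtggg
Tjp3: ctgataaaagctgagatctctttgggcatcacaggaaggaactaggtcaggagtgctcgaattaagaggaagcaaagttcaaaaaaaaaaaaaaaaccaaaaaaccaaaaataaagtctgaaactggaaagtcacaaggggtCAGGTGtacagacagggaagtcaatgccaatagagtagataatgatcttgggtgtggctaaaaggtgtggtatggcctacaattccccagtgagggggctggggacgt
The E-box began 187 and 19 bases before the start in Epcam, 64 and 53 bases before it in Rab25, 140 in Elf3 and 108 in Tjp3. A second annotated start of Tjp3 had the E-box 17 bases before it. The windows of Lad1 and Prom2, which did not pass the test, did not hold these letters. Of 32851 windows of this length in the table, 17.2% held the E-box at least once and 2.1% at least 2 times, both strands counted. The letters AACCGG or CCGGTT, read by grainyhead-like factors, stood in the windows of Elf3 and Prom2 and in 5.6% of all windows. The ETS letters GGAAGT or ACTTCC stood in the first window of Tjp3 and in 19.7% of all windows. No overlap occurred between these motifs in the 7 windows. The motifs were chosen with the sequences in view, so the split between windows of genes that rose and of genes that did not is no test. A match is a description of letters and not of binding.

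Krt8 and Krt18 also rose, while Krt7, another luminal keratin, fell by 0.82. Krt8 had a mean signal of 8906 ± 751 at 10 weeks and 6881 ± 916 at 5 weeks (SD, n = 3 each; log2 difference 0.38, limma adjusted p = 0.0381). Krt18 had 7816 ± 742 at 10 weeks and 6246 ± 631 at 5 weeks (SD, n = 3 each; log2 difference 0.32, limma adjusted p = 0.04997). These signals are among the brightest on the arrays, and whether differences are compressed at such signals was not tested. Subtracting the mean log2 value of these 2 keratins in each array asks whether a gene changed unequally to them.

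Relative to the keratins, 4 of the 10 genes rose and 1 fell, where 5.05% of all genes rose and 33.6% fell on this scale and the median of all genes shifted to -0.36. Tjp3 rose by 1.22 ± 0.18, Esrp1 by 0.84 ± 0.16, Ehf by 0.84 ± 0.19 and Epcam by 0.58 ± 0.19 (SE; limma adjusted p = 0.000359, 0.00154, 0.00455 and 0.0325). Lad1 fell by 0.84 ± 0.17 (SE; limma adjusted p = 0.00223), and its ages did not overlap, with -3.71, -3.72 and -3.78 at 10 weeks, against -2.93, -3.04 and -2.71 at 5 weeks. Elf3 and Rab25 no longer passed (limma adjusted p = 0.275 and 0.0836), with differences of 0.25 and 0.41. The differences of Cdh1 and Cdh3 were 0.26 (95% interval -0.11 to 0.63) and -0.08 (-0.59 to 0.43), so their changes were not distinguishable from those of the keratins at this spread.

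**Figure D3:**
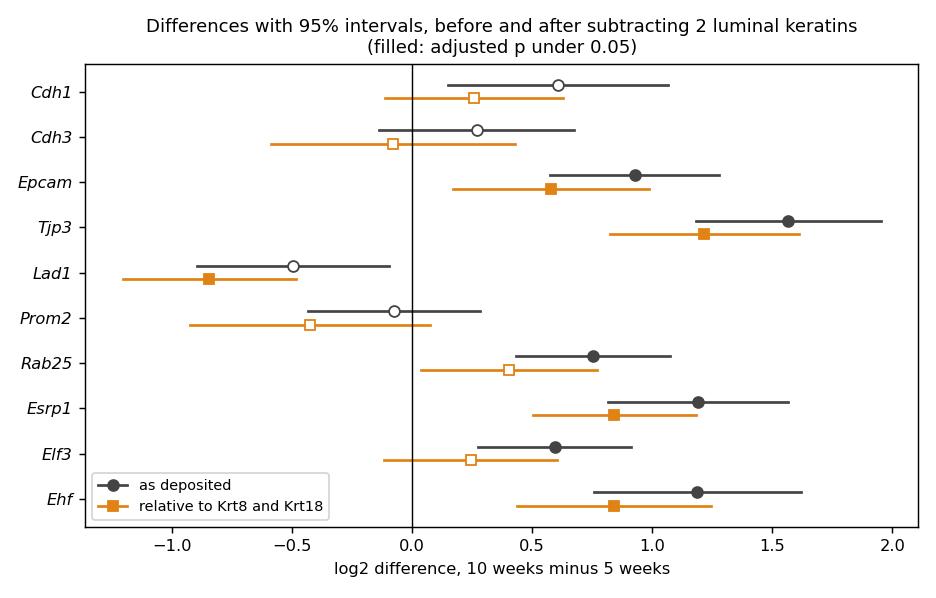
Log2 difference (10 weeks minus 5 weeks) with its 95% interval for the brightest probe set of each gene, on the deposited scale (grey circles) and after subtracting the mean log2 value of Krt8 and Krt18 in each array (orange squares); filled symbols passed adjusted p under 0.05. Tjp3, Esrp1, Ehf and Epcam stay above 0 on both scales and Lad1 passed relative to the keratins and not on the deposited scale.

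The neighbours of these genes in the same structures were read from lists chosen with earlier results of these data known. The list counts stand beside 15.5% of all genes that rose and 19.0% that fell. In the tight junction and polarity list, which holds no claudins, 12 of 15 tested genes rose and none fell, with a median log2 difference of 0.81, and the differences of all 15 were above 0. Marveld3, a membrane protein of tight junctions, rose by 1.61, Pard6b, a polarity scaffold, by 1.75, and Ocln, which encodes occludin, by 1.38 (limma adjusted p = 0.000106, 0.000604 and 0.000620). Among catenins, nectins and other adherens junction partners, 4 of 12 rose and 2 fell, with a median of 0.27. Jup, which encodes plakoglobin, rose by 0.49, and the adhesion genes Nectin1 and Nectin2 rose by 0.81 and 0.61 (limma adjusted p = 0.0161, 0.0271 and 0.0148). Nectin3 fell by 1.03 (limma adjusted p = 0.00225).

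Desmosome and hemidesmosome genes were divided, with 5 of 14 rising and 2 falling and a median of 0.12. Itga6 and Itgb4, which encode the chains of the hemidesmosome integrin, rose by 1.35 and 0.86, and the desmosomal cadherin gene Dsg2 by 1.18 (limma adjusted p = 6.2e-05, 0.00467 and 0.000111). Evpl, which encodes envoplakin, fell by 1.16 (limma adjusted p = 0.00640). Dsp was the other that fell, by 0.95 (limma adjusted p = 0.000802), and its mean signals of 532 at 10 weeks and 1056 at 5 weeks were above those of Evpl, 92.3 and 238. Of the trafficking partners of Rab25, 6 of 10 rose and 1 fell, with a median of 0.57. Rab11fip1, an effector of Rab11 and Rab25, rose by 1.42, the motor gene Myo5b by 1.19 and Ap1m2, a subunit of the epithelial sorting adaptor, by 1.38 (limma adjusted p = 0.000210, 0.000350 and 0.000164). Rab11fip2 fell by 0.45 (limma adjusted p = 0.0377).

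Among the epithelial transcription and splicing regulators, 9 of 12 tested genes rose and 1 fell, with a median of 0.90. Esrp2, the paralogue of Esrp1, had a mean signal of 1753 ± 289 at 10 weeks and 714 ± 80.1 at 5 weeks (SD, n = 3 each) and rose by 1.25 (limma adjusted p = 0.000438). Tfap2c and Gata3, transcription factor genes of luminal cells, rose by 1.30 and 0.91 (limma adjusted p = 0.000177 and 0.000427). Foxa1, a pioneer factor of hormone-sensing cells, fell by 2.15 (limma adjusted p = 7.9e-05). Of the 6 surface relatives and partners of Epcam and Prom2, 4 rose and 2 fell, with a median of 0.59. Cldn7, a claudin that binds EpCAM, rose by 1.17, Cd24a by 0.73 and the mucin gene Muc1 by 1.76 (limma adjusted p = 0.000620, 0.00205 and 0.000119). Prom1, the relative of Prom2, fell by 2.71, with mean signals of 79.8 ± 27.5 at 10 weeks and 688 ± 66.1 at 5 weeks (SD, n = 3 each; limma adjusted p = 6.4e-05).

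In the list of Cdh1 repressors and mesenchymal genes, 10 of 11 fell and none rose, with a median of -1.25, and the differences of all 11 were below 0. Zeb1, a repressor of Cdh1, had mean signals of 804 ± 142 at 10 weeks and 2411 ± 77.5 at 5 weeks (SD, n = 3 each) and fell by 1.56 (limma adjusted p = 0.000141). Twist1 fell by 2.04 and Prrx1, another transcription factor gene of mesenchyme, fell by 1.71 (limma adjusted p = 0.000218 and 7.7e-05). Fibroblasts also use many genes of this list, and 5 of 6 fibroblast markers fell too, among them Col1a1 by 1.05, Lum by 0.93 and Pdgfra by 0.83 (limma adjusted p = 0.000275, 0.000218 and 0.000824). The summed signal of those 6 was 48733 to 52249 at 10 weeks and 68064 to 82223 at 5 weeks. That of 5 adipocyte markers was 31524 to 39462 at 10 weeks and 41612 to 48948 at 5 weeks, and 2 of the 5, Cidec and Lep, fell by 1.44 and 0.99 (limma adjusted p = 0.00172 and 0.0136). That of 5 endothelial markers was 3306 to 3851 at 10 weeks and 5607 to 6294 at 5 weeks, and 4 of the 5 fell, among them Vwf by 2.03, Pecam1 by 0.76 and Tek by 0.79 (limma adjusted p = 4.8e-05, 0.00313 and 0.00908). Of 4 macrophage markers 2 fell, Mrc1 by 1.10 and Csf1r by 0.28, and Adgre1 rose by 0.42 (limma adjusted p = 0.000158, 0.0379 and 0.0441).

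The epithelial lists were mixed. The summed signal of 4 luminal keratins was 23811 to 27685 at 10 weeks and 17580 to 21880 at 5 weeks, and 3 of the 4 rose. Krt19 rose by 0.56 (limma adjusted p = 0.00372), while Krt7 fell by 0.82 (limma adjusted p = 0.0137). That of 8 basal and myoepithelial markers was 22121 to 23453 at 10 weeks and 18301 to 19485 at 5 weeks, of which Acta2 alone held a mean of 13057 at 10 weeks and 10323 at 5 weeks. Of these 8, 4 rose and 2 fell. Krt14 rose by 1.09, Myh11 by 0.67 and Acta2 by 0.34, while Krt17 fell by 0.56 (limma adjusted p = 0.00158, 0.00465, 0.0167 and 0.0470). Oxtr, the oxytocin receptor gene, was the other that fell, by 0.49 (limma adjusted p = 0.0117), and the median of the 8 was 0.27. The part of these shifts between tissue compartments in the differences of the 10 genes was not tested. The values relative to Krt8 and Krt18 show unequal change only, and the muscle covariate covers muscle alone and moved with age.

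**Figure D4:**
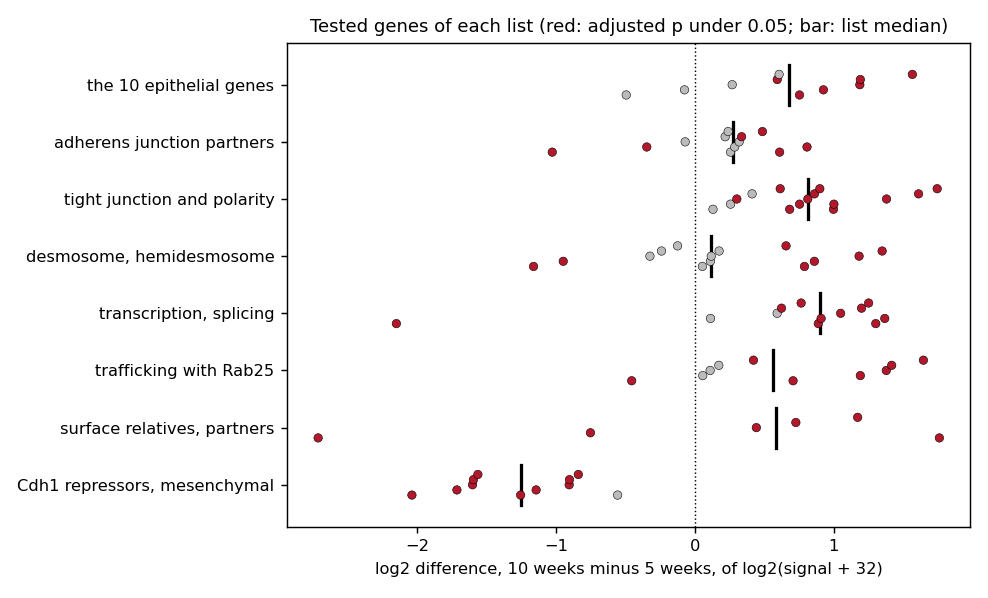
Log2 difference (10 weeks minus 5 weeks, on log2(signal + 32)) of every tested gene among the 10 epithelial genes and the 7 lists of related genes (cell type markers are not plotted), 1 point a gene, with vertical bars at the list medians and red for adjusted p under 0.05. The medians plotted run from 0.90 for the transcription and splicing regulators down to -1.25 for the Cdh1 repressors and mesenchymal genes, and that of the 10 epithelial genes is 0.68.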

How the data were processed

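Total RNA from mammary gland, labelled with biotinylated UTP per the labels, was measured on 6 arrays. Each probe set has 1 deposited signal intensity on a linear scale, and the values show that the authors scaled each array to a mean of 500 to within 1 unit after leaving out the lowest and highest 2% of probe sets. The algorithm behind the signals, detection calls and batches are not given in the sources used here. Median signals were 156.4 to 172.5, and log2 values correlated at 0.973 to 0.978 within an age and at 0.932 to 0.955 between ages. Precision is limited by the number of arrays. Pools were numbered in accession order, so numbers pair no pools. The labels do not say how animals were assigned to pools. The limma p-values weigh the age difference against the spread between these pools, moderated over all probe sets tested, and not against that between animals.

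The 64 control probe sets of the 45101 were dropped, and 34945 of the rest carried 1 gene symbol, 932 several and 9160 none. Gene identifiers of 34741 were found in a RefSeq table (GRCm38.p6), from which their symbols were updated. Signals were raised to at least 1, and the test used log2(value + 32), on which differences of dim genes come out too small. The dimmest 40% of probe sets by mean over all arrays were not tested. limma 3.58.1 in R 4.3.3 was fitted on age with a variance trend, two-sided, with Benjamini-Hochberg adjustment over 27021 probe sets. The steps were tested on simulated data with independent normal noise for each probe set. That checks the fitting steps and not the calls in these pools. Plots were drawn with matplotlib 3.10.9. The 10 genes and the lists were chosen with earlier results of these data known. Each list of related genes or markers is described by the 3 called genes of lowest adjusted p in its commoner direction and the largest call the other way, or the 2 brightest genes where there is no call. Krt8, Krt18 and Krt14 are always named, and Dsp and Oxtr are named in addition. Alternatives changed the offset, filter, scaling, variance model, array weights and probe set rule, added a muscle covariate, centred on keratins and left out each pool.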

Additional observations from a re-analysis of the deposited data

How the results depend on the processing

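No paired analysis was possible because the pools carry no shared replicate numbers in the labels. The calls of Epcam, Esrp1, Ehf and Tjp3, on all 7 of their tested probe sets, held under each of 17 alternatives. That of Rab25 was lost relative to the keratins (0.41, limma adjusted p = 0.0836) and that of Elf3 under 3 alternatives (limma adjusted p = 0.0509 to 0.275). Cdh1 passed under 4 of 17, with values from 0.26 to 0.85 over them all, and Lad1 under 2. With each pool left out in turn, 5 to 7 of the 10 genes rose and 0 to 1 fell, and among all genes 1427 to 1765 rose and 1892 to 2094 fell, against 2014 and 2480 with all pools. Relative to the keratins 1 of the 10 fell, and 658 of all genes rose and 4383 fell. With the muscle covariate these were 852 and 1097. The brighter Prom2 probe set changed sign with quantile normalization (0.0013), with the muscle covariate (0.17) and without 10-week pool 1, and ran from -0.14 to 0.059 with pools left out, and Cdh3 changed sign relative to the keratins (-0.079); none of these passed, and the cause was not tested. The shift of Cdh3 against Cdh1 ran from -0.70 to -0.15 with pools left out. With 3 pools an age, the interval of Cdh3 still holds a log2 difference of 0.68, and that of the brighter Prom2 probe set holds -0.43. The 2 probe sets too dim for the main test were fitted with no filter on dim probe sets. There the second Cdh3 probe set differed by 0.32 and the further Ehf probe set by 0.29 (limma adjusted p = 0.656 and 0.556). Neither passed, no interval is given for them, and no detection calls were used.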
